A study of Drosophila melanogaster with 3 samples.

Results

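The genes described here are the gustatory receptor (Gr) and ionotropic receptor (Ir) genes counted in single-cell libraries of the sense organs with which third-instar Drosophila melanogaster larvae taste and smell. They were taken as every gene symbol in the count tables made of Gr or Ir and a digit, without Gr28b, Ir21a, Ir25a and Ir93a, which left 48 of 10457 symbols, 23 Gr and 25 Ir. The rule goes by name, so it also takes in a carbon dioxide receptor, a humidity receptor and some antennal odour receptors. The study made 3 single-cell libraries, replicates 1, 2 and 3 of 1 group, from sense organs that were picked by hand under a fluorescent label, dissociated with enzymes and run through DisCo, a droplet method for small samples. The labels give no genotype, driver line, treatment or second group, and they do not explain the suffixes Sens40M, SensMix and SensSingle that tell the titles of replicates 1, 2 and 3 apart. They do not say whether the libraries came from separate animals, so SDs and p-values measure the spread between these 3 libraries, which may be technical.

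Gustatory receptors are membrane proteins that open as cation channels when a tastant binds, and most neurons combine several of them. In bitter-sensing neurons of flies and larvae, Gr33a and Gr66a act as widely shared partners of more selective receptors. Ionotropic receptors are variants of synaptic glutamate receptors in which a tuning subunit works with a co-receptor such as Ir25a or Ir76b. In the larva both families are used in the terminal and ventral organs of the head and in the throat, while the dorsal organ is mainly olfactory.

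Values are whole-number counts per gene and barcode, a barcode being the bead sequence that marks transcripts caught together and not necessarily 1 cell. Barcodes with at least 200 genes were kept, 61, 214 and 231 in replicates 1, 2 and 3, holding 497492, 654062 and 345621 counts. Levels are CPM, counts scaled to 1000000 kept counts of the library, and intervals are exact 95% Poisson or Clopper-Pearson intervals for counting error only, since the sources used here do not say whether amplified copies were collapsed. The deepest barcode held 23.0%, 24.1% and 34.3% of the kept counts, and no kept barcode sequence was shared between libraries. The libraries were unlike in content. Neuron markers summed to 109, 6150 and 12300 CPM in replicates 1, 2 and 3, with 9, 10 and 10 of 10 listed markers counted and Rim at 0 in replicate 1. Epidermis markers summed to 2250, 74.9 and 396 CPM and glia markers to 595, 3740 and 472 CPM. Of 8 glia markers 5, 6 and 5 were counted, and of 6 epidermis markers 6, 3 and 4. The glia marker alrm was at 0 in all 3 libraries. So were repo and Eaat1 in replicate 1, moody in replicate 2, and Mdr65 and wrapper in replicate 3. The epidermis markers kkv and ple were at 0 in replicates 2 and 3, and knk in replicate 2. The part of this makeup in the receptor values was not tested.

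Gr and Ir transcripts were rare, and both families were counted in every library, in shares that differed from library to library. Replicate 1 had 22 counts of 11 members, replicate 2 had 138 counts of 26 members and replicate 3 had 63 counts of 18 members. Gr members summed to 20.1, 187 and 34.7 CPM in replicates 1, 2 and 3, a mean of 80.4 ± 92.2 CPM (SD, n = 3). Ir members summed to 24.1, 24.5 and 148 CPM, a mean of 65.4 ± 71.2 CPM (SD, n = 3). Replicate 2 alone was high for the Gr genes and replicate 3 alone for the Ir genes, so each mean was smaller than its SD. Without replicate 2 the mean of the Gr genes was 27.4 CPM, and without replicate 3 that of the Ir genes was 24.3 CPM. In replicate 2, Gr genes made up 122 of 138 member counts (88.4%, interval 81.9 to 93.2). In replicate 3 they made up 12 of 63 (19.0%, interval 10.2 to 30.9), and in replicate 1 they made up 10 of 22 (45.5%, interval 24.4 to 67.8). This split rested in part on 3 genes. Without Gr66a and Gr68a, Gr genes made up 35 of 51 counts in replicate 2 (68.6%, interval 54.1 to 80.9), and without Ir51a they made up 12 of 31 in replicate 3 (38.7%, interval 21.8 to 57.8). The intervals of these libraries then overlapped, but the share stayed higher in replicate 2, and overlap does not show that the shares are alike. The 3 genes were left out because they had 20 or more counts in these data, so a smaller split was to be had in advance.

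Over all libraries 47 of the 48 members were counted in kept barcodes, with 223 counts. No gene row of any library was without counts, so the 48 are by rule genes with a count. Gr and Ir genes that were never counted are not among them. The remaining one, Ir67a, had its only count in a barcode with fewer than 200 genes. The 4 most counted members, Gr66a, Gr68a, Ir51a and Gr33a, held 134 of the 223 counts (60.1%), and the other 43 shared 89. A single count was all that 23 members had. Of the members counted, 41 were counted in 1 library, 4 in 2 libraries and 2, Gr36a and Ir94f, in all 3. The 23 with a single count could only fall in 1 library. The same split was not computed for all genes, so it does not show that members were particular to a library. Low counts were more common here than among all genes. In replicates 1, 2 and 3, 45.5%, 57.7% and 66.7% of the counted members had 1 count, beside 29.4%, 19.5% and 36.5% of all counted genes. Median counts were 2, 1 and 1 for members and 4, 15 and 3 for all genes. Every count of a member lay in a different barcode in 48 of 55 combinations of member and library. This was fixed in advance for members with a single count in a library, 5, 15 and 12 in replicates 1, 2 and 3. Gr66a, Gr68a, Gr33a, Ir76b and Ir94f in replicate 2 and Ir51a and Ir100a in replicate 3 had more than 1 count in some barcode.

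**Figure D1:**
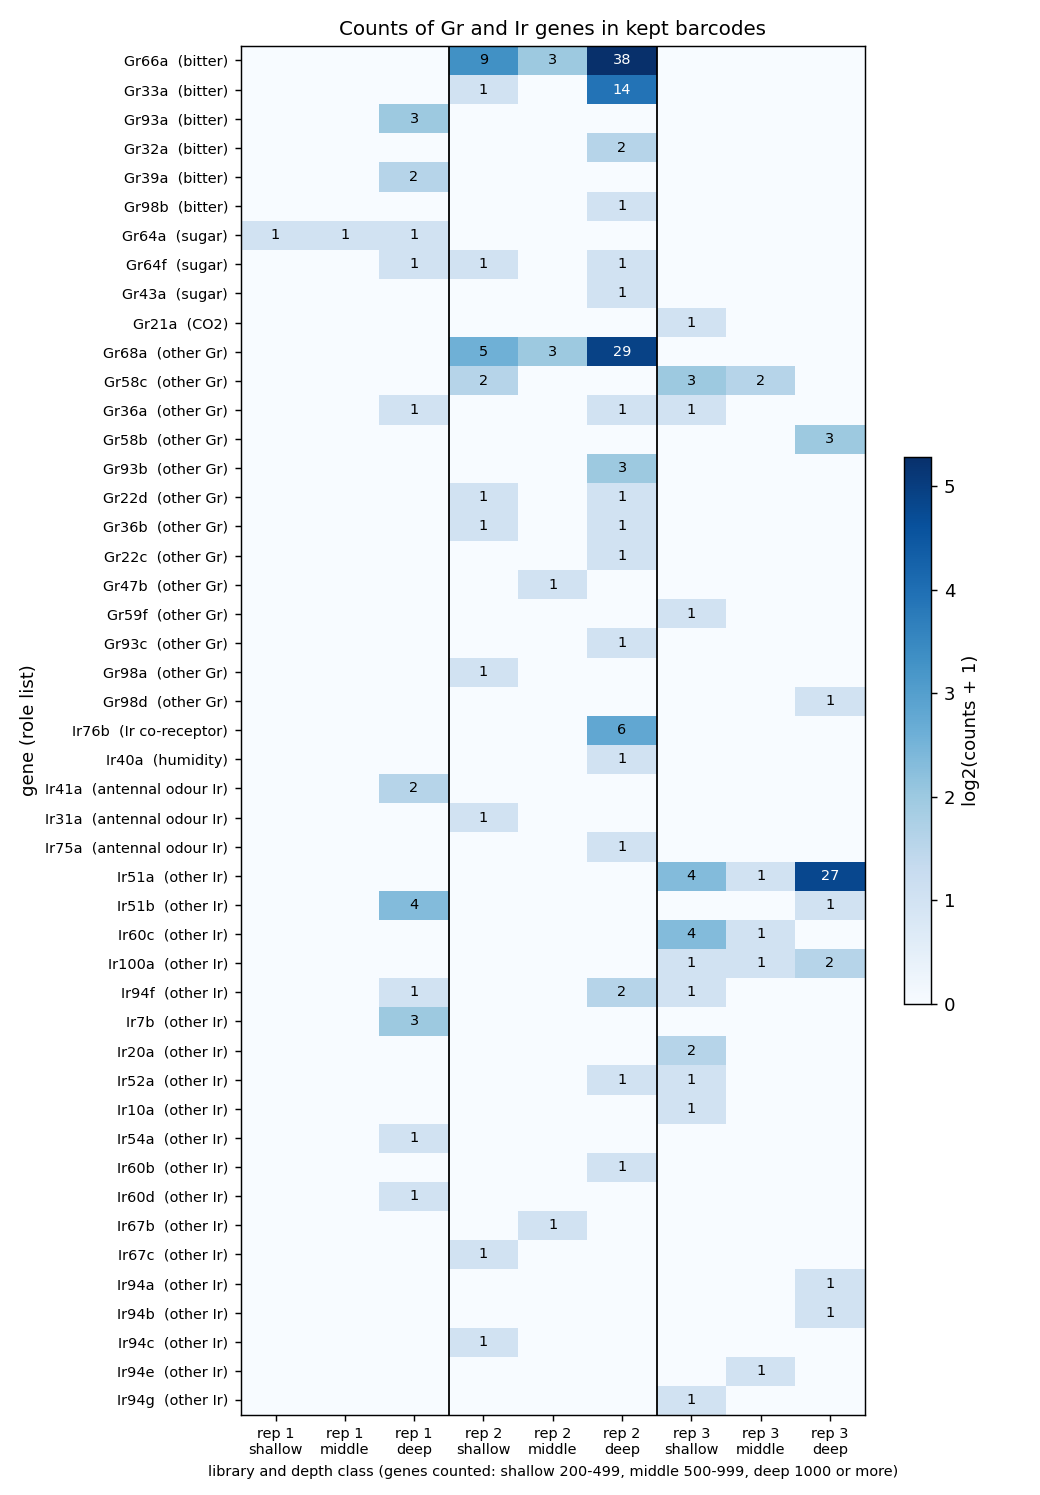
Counts of the 47 members with a count in kept barcodes (rows, with the role list of each gene) in the 3 libraries, each split into barcodes with at least 200 but under 500 genes (shallow), at least 500 but under 1000 (middle) and 1000 or more (deep). Numbers are counts, colour is log2(counts + 1) and empty cells are 0. Gr66a, Gr68a and Gr33a stand out in replicate 2 and Ir51a in replicate 3, while 23 genes have a single count.

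Among the genes of the bitter list, 6 of 11 were in the tables. Gr66a (FBgn0035870, arm 3L), a receptor shared by bitter neurons, had 0, 50 and 0 counts in replicates 1, 2 and 3. In replicate 2 these lay in 27 of 214 kept barcodes (12.6%, interval 8.48 to 17.8) and gave 76.4 CPM (interval 56.7 to 101). Replicates 1 and 3 had no row for it, and a count of 0 allows levels up to 6.03 and 8.68 CPM (3 counts of the library, a one-sided limit). Two-sided intervals of a 0 reach 7.41 and 10.7 CPM there. The interval of replicate 2, which takes the counts as independent, lay above all of these. Gr66a is among the members only through that library and is the most counted of them, so this is a description and not a test. Its mean of 25.5 ± 44.1 CPM (SD, n = 3) did not exceed its spread. Most barcodes with Gr66a had very little of it: 18 of the 27 had 1 count, and the highest number was 8, reached by the deepest and the second deepest barcode. Gr33a (FBgn0032416, arm 2L), another receptor shared by bitter neurons, had 0, 15 and 0 counts, in 7 barcodes of replicate 2 (3.27%, interval 1.33 to 6.62), and stood there at 22.9 CPM (interval 12.8 to 37.8). Its barcodes held 2, 2, 2, 1, 6, 1 and 1 counts, in order of falling depth. The remaining bitter receptors were close to the limit of counting. Gr93a, needed for caffeine responses in adult flies, had 3 counts and Gr39a had 2, all in replicate 1. Gr32a had 2 counts and Gr98b had 1, all in replicate 2. Gr32a shares exon bases on the opposite strand with CG6230, which had 29 counts in replicate 2, and whether counting used strand is not given in the sources used here. As a group the bitter genes reached 10.1, 104 and 0 CPM in replicates 1, 2 and 3, from 5, 68 and 0 counts.

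Gr68a (FBgn0041231, arm 3L), described in adult males as a receptor used in courtship, was outside the role lists and was the second most counted member. It had 0, 37 and 0 counts in replicates 1, 2 and 3, in 22 barcodes of replicate 2 (10.3%, interval 6.56 to 15.2), at 56.6 CPM (interval 39.8 to 78.0). Replicate 2 was again the only library with a count. The gene lies inside the gene loaf on the opposite strand without sharing exon bases, and loaf, listed under its older symbol CG6024, had 4, 18 and 3 counts in replicates 1, 2 and 3. Of the 22 barcodes, 15 had 1 count of Gr68a and the deepest had 9.

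Sugar and carbon dioxide receptors were barely counted. Of 9 listed sugar receptor genes, 3 were in the tables: Gr64a with 3 counts in replicate 1, Gr64f with 1 count in replicate 1 and 2 in replicate 2, and Gr43a, a fructose receptor, with 1 count in replicate 2. Their sums were 8.04, 4.59 and 0 CPM, within 4 counts in every library. Gr64f and Gr43a share exon bases on the opposite strand with CG11593 and Dhx15. Gr21a, which with Gr63a forms the carbon dioxide receptor, had 1 kept count, in replicate 3, and Gr63a had no row in any table.

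The other Gr genes had 1, 51 and 11 counts in replicates 1, 2 and 3. Gr58c had 0, 2 and 5 counts, each in a separate barcode, and none lay in a deep barcode. Its level was 14.5 CPM in replicate 3 (interval 4.70 to 33.8) and 3.06 CPM in replicate 2, where 2 counts give an interval that overlaps it. Gr58b, its neighbour on arm 2R, had 3 counts, all in replicate 3. Gr36a was the only Gr gene counted in every library, with 1 count in each, and its levels of 2.01, 1.53 and 2.89 CPM are those of a single count. Gr93b had 3 counts in replicate 2, and Gr22c, Gr22d, Gr36b, Gr47b, Gr93c, Gr98a, Gr59f and Gr98d had 1 or 2 each. Several of these genes stand in clusters of related genes. For 26 of the 48 members the nearest gene is itself a Gr or Ir gene, and how reads matching several genes were counted is not given in the sources used here, so counts of neighbours such as Gr58b and Gr58c are uncertain.

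Ir76b (FBgn0036937, arm 3L), the co-receptor gene for taste of salts, amino acids and other compounds, had 0, 6 and 0 counts in replicates 1, 2 and 3. The 5 barcodes that carried it were all deep, with 1, 1, 2, 1 and 1 counts at total counts of 28073, 8021, 5343, 4473 and 4200. At 9.17 CPM (interval 3.37 to 20.0), its interval in replicate 2 reached below the limits of 6.03 and 8.68 CPM that a count of 0 allows in replicates 1 and 3. This overlap does not decide whether the libraries differed in Ir76b, and the difference was not tested. Ir8a, the co-receptor for acid-sensing receptors of the antenna, had no row. Among genes with a known antennal role, Ir41a had 2 counts in replicate 1, and Ir31a, Ir75a and the humidity receptor gene Ir40a had 1 count each in replicate 2.

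Ir51a (FBgn0033997, arm 2R) was the most counted Ir gene, with 0, 0 and 32 counts in replicates 1, 2 and 3. The BDGP6 annotation of Ensembl lists it as a pseudogene, as it does Ir60c, while the other 46 members are protein-coding. In replicate 3 it stood at 92.6 CPM (interval 63.3 to 131) and was counted in 10 of 231 barcodes (4.33%, interval 2.10 to 7.82). Counts of 0 allow up to 6.03 CPM in replicate 1 and 4.59 CPM in replicate 2, below this interval, which takes the counts as independent. Of the 32 counts, 28 lay in the deepest barcode and barcodes within 4 edits of it. Whether these came from separate cells was not tested, so the difference between libraries may rest on few cells. Ir51b, its neighbour, had 4 counts in replicate 1, none in replicate 2 and 1 in replicate 3. Ir60c had 5 counts in 5 barcodes of replicate 3, none of them deep, and stood at 14.5 CPM (interval 4.70 to 33.8). Ir100a had 4 counts and Ir20a had 2, all in replicate 3, and Ir7b had 3, all in replicate 1. Of the Ir94 cluster on arm 3R, Ir94f was counted in every library, with 1, 2 and 1 counts. Its relatives Ir94a, Ir94b, Ir94e and Ir94g had 1 count each in replicate 3 and Ir94c had 1 in replicate 2. The remaining Ir members, Ir10a, Ir52a, Ir54a, Ir60b, Ir60d, Ir67b and Ir67c, had 1 count in each library that counted them, and Ir52a was in both replicates 2 and 3.

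Members were counted in a larger share of deep than of shallow barcodes, while at a common depth the difference was much smaller. Its mean was below 0 at each common depth used, and above 0 when similar barcodes were joined. Deep barcodes, with 1000 or more genes, numbered 24, 29 and 10 in replicates 1, 2 and 3, and shallow ones, with under 500 genes, numbered 24, 160 and 194. A member was counted in 11 of 24 deep and 1 of 24 shallow barcodes of replicate 1 (45.8% and 4.17%). In replicate 2 it was 21 of 29 deep and 21 of 160 shallow barcodes (72.4% and 13.1%), and in replicate 3 it was 7 of 10 deep and 19 of 194 shallow ones (70.0% and 9.79%). Median counts were 10474.5, 6787 and 7081 in deep barcodes and 733.5, 431 and 461.5 in shallow ones. When barcodes with enough counts were thinned to 395 counts, the expected shares were 1.81%, 10.1% and 5.19% in deep barcodes and 1.58%, 11.6% and 7.42% in shallow ones. The thinned difference, deep minus shallow, averaged -1.15 ± 1.26 percentage points (SD, n = 3 libraries). Flipping its sign over libraries, an exact permutation test on both sides, gave p = 0.5, and 3 libraries cannot give a p below 0.25. Thinning left out 4, 61 and 60 kept barcodes that were too shallow. All of these were of the shallow class, of which 20, 99 and 134 were thinned, while every deep barcode was. Thinned to 564 counts, the median, the difference was -5.56 ± 4.63 percentage points, below 0 in all 3 libraries. With barcodes within 3 edits of a deeper one joined to it, the difference was 1.16 ± 1.02, above 0 in all 3. Each of these differences had p = 0.25 in the exact permutation test, the smallest possible. At 564 counts most shallow barcodes of replicates 2 and 3, with medians of 431 and 461.5 counts, were too shallow to be used, while no deep one was. The joining took in 26 and 28 barcodes in replicates 2 and 3. It took in 0 in replicate 1, which was above 0 without it (0.23 percentage points).

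Summed levels of the depth classes were compared next. Members stood at 45.6, 197 and 184 CPM in deep barcodes and at 45.5, 319 and 209 CPM in shallow ones in replicates 1, 2 and 3. The difference, deep minus shallow, was -49.2 CPM ± 64.7 (SD, n = 3), with p = 0.5 in the same exact permutation test, and it was above 0 in 1 of 3 libraries. It was -73.8 CPM without replicate 1 and -12.5 CPM without replicate 2. Without the 3 deepest barcodes of each library it was -52.8 CPM ± 47.6, below 0 in all 3, with an exact permutation p of 0.25. Deep barcodes held 90.9%, 76.8% and 57.1% of the member counts, and they held 88.1%, 82.4% and 56.5% of all counts. Single genes varied around this. In replicate 2, Gr66a stood at 120, 75.3 and 70.5 CPM in shallow, middle and deep barcodes, with overlapping intervals of 54.7 to 227, 15.5 to 220 and 49.9 to 96.8. Ir51a in replicate 3 ran the other way, at 39.9, 20.0 and 138 CPM, and the interval of the deep barcodes (91.1 to 201) overlapped those of the shallow (10.9 to 102) and middle (0.505 to 111) ones.

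**Figure D2:**
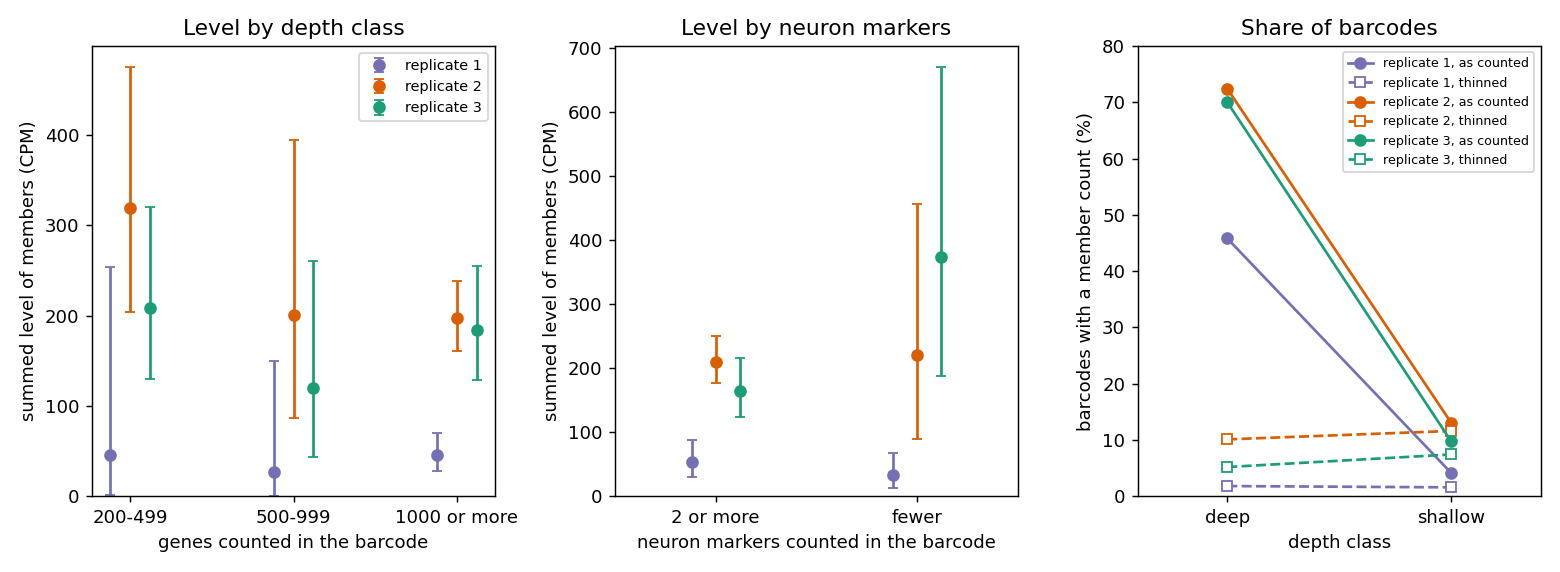
Summed level of all members in CPM by the number of genes counted in a barcode (left) and by the number of neuron markers counted (middle), with exact 95% Poisson intervals, and the share of barcodes with a member count in deep and shallow barcodes as counted and after thinning to 395 counts (right, points without intervals). Colours are the 3 replicates. The share falls to 4.17 to 13.1% in shallow barcodes, against 45.8 to 72.4% in deep ones. After thinning it is 1.81 to 10.1% in deep barcodes and 1.58 to 11.6% in the shallow ones with enough counts to thin.

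Member counts were next set against neuron markers. Barcodes with counts of at least 2 of the 10 neuron markers had summed levels of 53.3, 210 and 164 CPM in replicates 1, 2 and 3. The other kept barcodes had 32.4, 221 and 374 CPM, the last from 11 counts (interval 187 to 670). The mean difference, with markers minus without, was -66.7 CPM ± 125 (SD, n = 3), with p = 0.75 in the same exact permutation test. Of the 3 libraries 1, replicate 1, was above 0, and the mean difference was -110 CPM without replicate 1 and 4.96 CPM without replicate 3. With at least 1 marker as the rule it was -117 CPM. As a share, members were counted in 66.7%, 30.7% and 13.9% of barcodes with the markers and in 13.5%, 9.09% and 13.6% of the others, at median counts of 13131, 637 and 600 against 1841, 377 and 396.5. Barcodes with at least 1 marker had a member in 66.7%, 24.0% and 13.6% of cases, at median counts of 10873, 563.5 and 524. Barcodes without any marker numbered 46, 22 and 10 and served as background, with a member in 6.52%, 13.6% and 20.0% of them, at median counts of 1635.5, 358 and 433.5. In replicates 2 and 3 the share with a marker lay inside the interval of this background (2.91 to 34.9% and 2.52 to 55.6%). In replicate 1 it lay above (interval 1.37 to 17.9%), with deeper barcodes. There, summed levels were 58.4 CPM with a marker (interval 35.2 to 91.2) and 17.4 CPM without (interval 3.59 to 50.9), and these intervals overlap. By gene, 49 of the 50 counts of Gr66a, 36 of the 37 of Gr68a, 14 of the 15 of Gr33a and all 6 of Ir76b lay in barcodes of replicate 2 with at least 2 markers, which held 95.2% of all its kept counts. In replicate 3 they held 30 of the 32 counts of Ir51a and 91.5% of all kept counts, so these genes were spread over the classes much as all counts were. The 1 count of Gr66a outside them lay in a barcode without any marker, a class where it makes 123 CPM (interval 3.12 to 687), against 78.7 CPM with at least 2 markers (interval 58.2 to 104).

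Genes of the taste pathway and its partners were listed too, 18 in all. Of these, 7, 11 and 12 had counts in replicates 1, 2 and 3. Ggamma1, a G protein subunit, had 244, 676 and 290 counts, and norpA, a phospholipase C of sensory transduction, had 81, 130 and 24. The channel gene TrpA1, which bitter neurons use, was at 0 in all 3. The co-receptor gene Ir25a stood at 0, 64.2 and 98.4 CPM and Orco, the odorant co-receptor gene, at 0, 604 and 0 CPM. Orco and the bitter receptor genes Gr66a and Gr33a were thus high in the same library. The bitter genes Gr93a and Gr39a, with 3 and 2 counts, were counted in replicate 1 only. In replicate 2 the levels of Gr66a were 76.2 CPM in the 71 barcodes with Orco (interval 54.9 to 103) and 77.7 CPM in the 143 without (interval 33.5 to 153). Those of Gr68a were 56.3 CPM with Orco (interval 38.2 to 79.8) and 58.3 CPM without (interval 21.4 to 127), so neither gene differed between these classes beyond counting error. The split by Orco was chosen after the values were seen, and with 1 library it has no replicate check.

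Counts of several members in 1 barcode occurred in 4 of 13, 18 of 49 and 5 of 32 barcodes with any member in replicates 1, 2 and 3. These are 30.8%, 36.7% and 15.6%, a mean of 27.7% ± 10.9 (SD, n = 3). They were mostly deep barcodes, 4, 15 and 3 of them, with median counts of 59460, 5553 and 7360 beside 10873, 632 and 702 in barcodes with 1 member. Both a Gr and an Ir gene were counted in 4, 8 and 4 barcodes. Pairs that shared a barcode numbered 17, 65 and 12, of which 1, 11 and 1 did so in at least 2 barcodes. The most members in 1 barcode were 5, 9 and 5, each time in the deepest barcode of the library.

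The pair seen most often was Gr66a and Gr68a. They were counted together in 12 barcodes of replicate 2, which are 44.4% of the barcodes with Gr66a and 54.5% of those with Gr68a. Of the 12, 9 were deep, and the pair's barcodes ranged from the deepest, with 157381 counts, to one with 584. Those ranked 16 and 33 by depth had sequences 3 edits from the one ranked 2, which also held the pair, and whether they came from separate cells was not tested. Gr33a was counted with both of them in 6 of its 7 barcodes. These 6 were the barcodes ranked 1, 2, 3, 5, 6 and 8 by depth, while the seventh, with 596 counts, held neither. All 6 also had Orco, with 45, 20, 52, 83, 6 and 13 counts. The 6 barcodes also held 24.1%, 10.3%, 7.65%, 5.87%, 4.29% and 1.79% of the library, and the part of depth in these pairs was not tested. Gr33a further met Gr32a in 2 barcodes and Gr93b in 2. It met Gr22c, Gr36a, Gr43a, Gr64f, Gr98b, Ir40a, Ir75a and Ir94f in 1 each. Ir76b was counted with Gr68a in 4 of its 5 barcodes, with Gr66a in 3, and with its fellow co-receptor gene Ir25a in 3. It met Gr33a in 1, the barcode ranked 6, which also had 10 counts of Ir25a, and its other partners, Gr32a, Gr93b, Gr93c and Ir75a, were met in 1 barcode each. Of the 4 barcodes with Ir76b and Gr68a, that ranked 18 lay 4 edits from the one ranked 3. That ranked 22 lay 4 edits from the deepest barcode. Both of these deeper barcodes also held Gr68a, and whether the 4 came from separate cells was not tested. Gr66a and Gr93b shared 3 barcodes, which were all that Gr93b had.

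**Figure D3:**
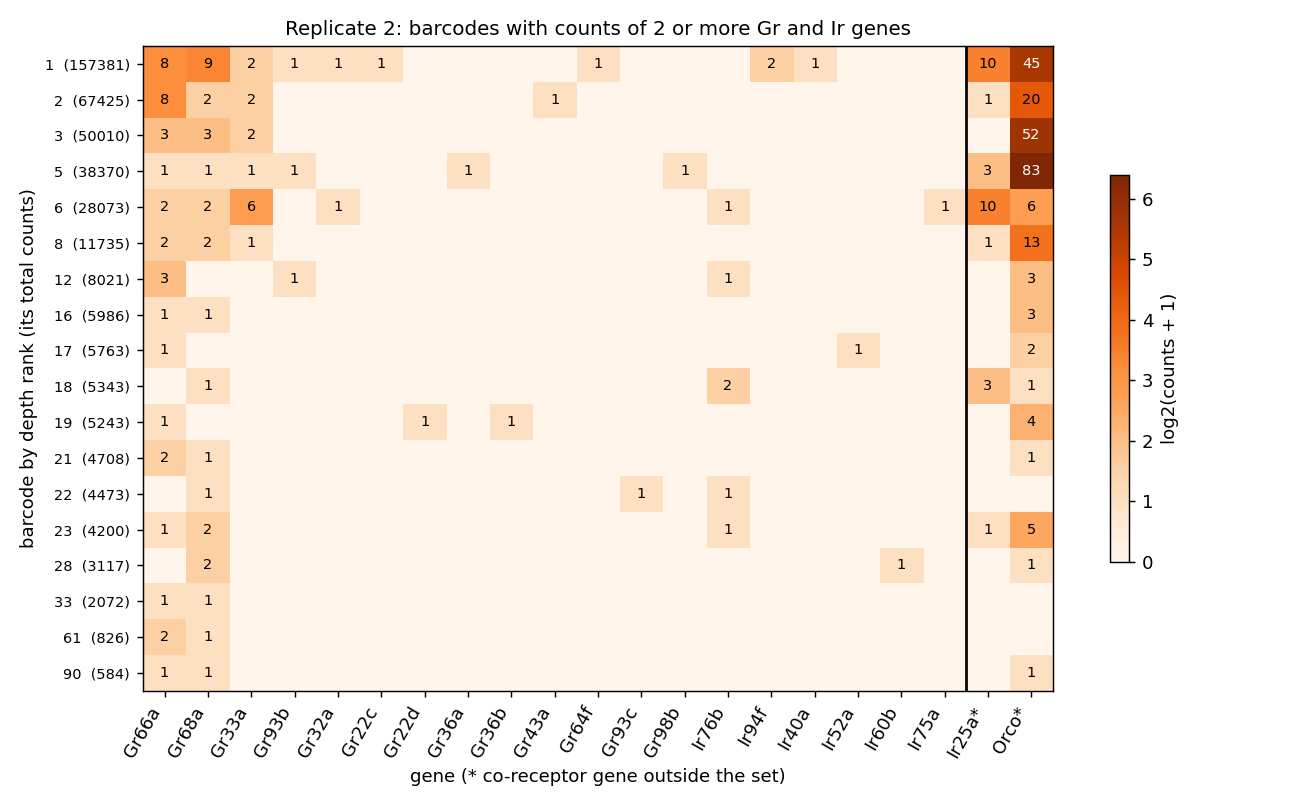
The 18 barcodes of replicate 2 with counts of at least 2 members (rows, by depth rank, with total counts in brackets) and the members counted in them (columns), with the co-receptor genes Ir25a and Orco at the right for reference. Numbers are counts and colour is log2(counts + 1). Gr66a, Gr68a and Gr33a are counted together in the first 6 rows. Ir76b is found in barcodes ranked 6 to 23, of which the one ranked 6 also holds these 3 genes. Barcodes ranked 4, with Gr68a alone of the 3, and 7, with Gr66a alone, are not drawn because they had 1 member.

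In replicate 3 the repeated pair was Gr58b and Ir51a, in 3 barcodes ranked 1, 4 and 5. Those ranked 4 and 5 each had a barcode sequence 3 edits from the deepest one, and whether the 3 counts of Gr58b came from separate cells was not tested. Ir51a also met Ir51b, Ir94a and Ir94b, all in the deepest barcode. Outside the set it shared 4 barcodes with Gr28b, 3 with Ir21a, 2 with Ir25a and 1 with Ir93a. In replicate 1, Gr93a and Ir51b met in the barcodes ranked 2 and 11, which lay 4 edits apart. Outside the deepest barcode, the single pairs of replicate 3 were Gr59f with Ir20a in a barcode of 819 counts and Ir20a with Ir60c in one of 584.

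Genes differed in how far their counts lay in 1 barcode. The barcode with most counts of a gene was set beside that barcode's share of its library. These barcodes were picked as the highest, so the shares are descriptions. The deepest barcode of replicate 2 held 8 of 50 counts of Gr66a (16.0%, interval 7.17 to 29.1) and 9 of 37 counts of Gr68a (24.3%, interval 11.8 to 41.2), and 24.1% of all counts. Neither share differed from that of the library beyond counting error, nor did the 8 counts of Gr66a in the second deepest barcode, which held 10.3% of the library. Gr33a had 6 of its 15 counts (40.0%, interval 16.3 to 67.7) in a barcode with 4.29% of the library, and Ir76b had 2 of 6 (33.3%, interval 4.33 to 77.7) in a barcode with 0.817%. Ir51a had 22 of its 32 counts (68.8%, interval 50.0 to 83.9) in the deepest barcode of replicate 3, which held 34.3% of all counts. A further 5 of its 10 barcodes lay 3 edits from this one and brought 6 more counts. The deepest barcode and the 19 kept barcodes within 4 edits of it held 87.5% of the Ir51a counts (interval 71.0 to 96.5) and 62.4% of the library. That left 4 counts in 4 shallow barcodes elsewhere. The 6 barcodes of this set with Ir51a had 8 to 10 of the 10 neuron markers, and the other 4 had 1 to 3. None of the 5 counts of Gr58c in replicate 3 fell in that set, nor did any of the 5 of Ir60c, and each 0 of 5 has an interval up to 52.2%.

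**Figure D4:**
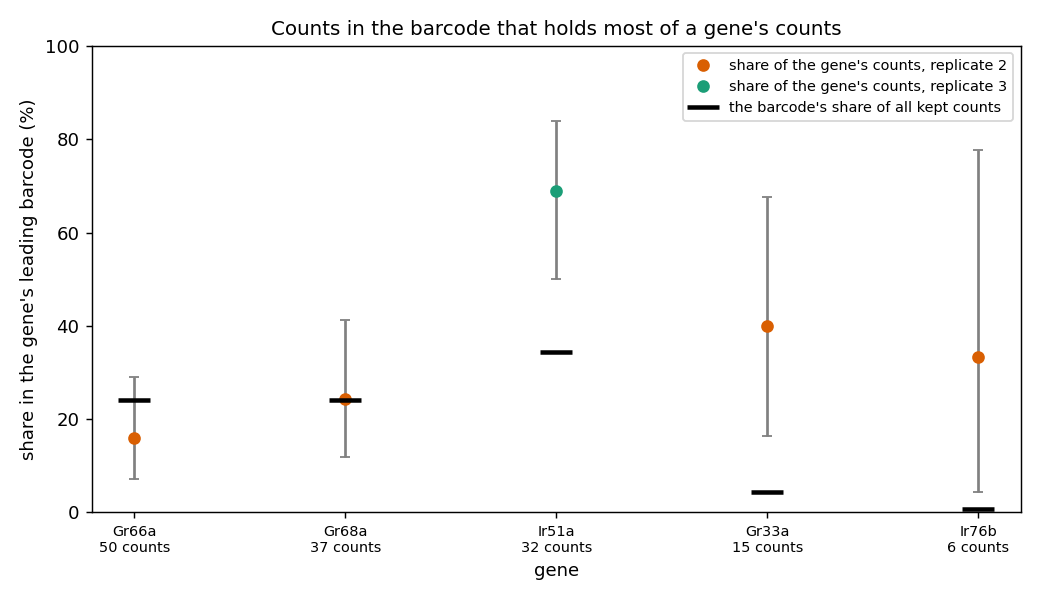
Share of a gene's counts in the barcode that holds most of them (points, coloured by replicate, with exact 95% binomial intervals) and the share of all kept counts that the same barcode holds (black bars), for genes with at least 5 counts in a library and at least 2 in 1 barcode. The intervals of Gr66a, drawn for the deepest of 2 barcodes with 8 counts, and Gr68a span the black bar, while Ir51a at 68.8%, Gr33a at 40.0% and Ir76b at 33.3% lie above theirs at 34.3%, 4.29% and 0.817%.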

How the data were processed

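Single-cell RNA libraries of 3 replicates of 1 group were analysed. The deposited tables hold raw counts, whole numbers for each gene in each 12-base barcode, judging by the values. The submitters' processing notes name STAR 2.7.0 and Seurat 3.1.2 with no role. Build, annotation, collapsing of copies, strand and cell filter are not given in the sources used here, so no coordinates are printed. All 48 symbols matched a FlyBase ID. The members, marker lists and rules were chosen with earlier results of these data known.

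Barcodes with at least 200 genes were kept and doublets were not called. Counts were summed per library and class, scaled to CPM, and classes were compared within libraries by an exact sign-flip test. Thinning used the hypergeometric expectation at 395 counts, the 25th percentile, and was checked on simulated data. Genes with at least 5 counts, and Gr33a, Ir76b and Ir51a, are given in full, with every partner of the last 3, and other members by their counts. Alternatives changed the minimum of genes, barcode joining, scaling (TMM, edgeR 4.0.16, R 4.3.3), thinning, the marker rule and the libraries used. Python 3.11.15, numpy 2.4.6, scipy 1.17.1 and pandas 2.3.3 were used. Groups of barcodes near the deepest one were defined after the barcodes were seen.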

Additional observations from a re-analysis of the deposited data

Results flagged for a closer look

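Barcodes with fewer than 200 genes, left out of every comparison, still carried 9 member counts in replicate 2 and 4 in replicate 3, above the 3 counts that a count of 0 allows, and 0 in replicate 1. In replicate 2 these were 3 counts of Gr66a, 2 of Gr68a and 1 each of Gr22d, Gr36b, Ir20a and Ir76b. In replicate 3 they were 1 each of Gr21a, Ir100a, Ir60c and Ir67a. Their levels were 255 CPM (interval 116 to 483) in replicate 2 and 168 CPM (interval 45.8 to 430) in replicate 3, beside 211 and 182 CPM in the kept barcodes.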

How the results depend on the processing

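Of 72 recalculations of 8 results, 5 changed sign and 5 moved by more than the spread between libraries or, for the number of members, 1.5 times. The other 62 did neither, but several changed much in size. Among them, the mean Gr level of 80.4 CPM was 27.4 without replicate 2, the mean Ir level of 65.4 CPM was 24.3 without replicate 3, and the difference in level by depth, -49.2 CPM, was -73.8 to -12.5 when 1 library was left out. The share of barcodes with a member, 19.4% as reported, was 13.7% with at least 100 genes, 39.8% with at least 500 and 6.52% after thinning. The number of members counted, 47, was 17 when at least 3 counts were required and 26 to 40 when 1 library was left out, lowest without replicate 2. The thinned difference between deep and shallow barcodes, -1.15 percentage points, was 53.7 without thinning, -5.56 when thinned to the median, 1.16 with barcodes joined to a deeper one within 3 edits and 0.834 with those within 4 edits of the 3 deepest joined, an alternative chosen after seeing the data. The difference by neuron markers, -66.7 CPM, was -117 CPM with at least 1 marker, 110 CPM with at least 500 genes (2 libraries) and -110 to 4.96 CPM when 1 library was left out, the highest without replicate 3. Limited to deep barcodes it could not be computed, since fewer than 2 libraries held deep barcodes without the markers. The cause of these shifts was not tested. At this depth, a member with 1 count cannot be told from 0 in another library.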
